A study of Cervus nippon with 12 samples.

Results

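The miRNAs most often used as reference genes for small RNA assays were followed through antler cartilage formation. Every listed name of miR-103, miR-107, miR-186, miR-191, miR-361 or miR-423, with any letter or arm suffix, was taken, which gave 8 of the 545 names listed: miR-103, miR-107, miR-186, miR-191, miR-191b, miR-361, miR-423-3p and miR-423-5p. The names are those of cattle miRNAs applied to deer reads, as for 475 of the listed names, and the other 70 are named novel_ with a number. The names were taken by number alone, with earlier results of these data known.

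Reference miRNAs serve as internal standards in qRT-PCR, where a target is read relative to a small RNA whose level is taken to be constant. The miRNAs chosen for this are mostly processed from introns of broadly expressed genes: miR-103 and miR-107 lie in PANK genes, miR-186 in ZRANB2, miR-191 in DALRD3 together with miR-425, miR-361 in CHM and miR-423 in NSRP1. miR-103 and miR-107 belong to one family with the same seed and nearly the same mature sequence, and miR-423-5p and miR-423-3p are the opposite arms of one hairpin.

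The cells came from antlers of wild-type (WT) sika deer (Cervus nippon). The deer were healthy adult males, 3 years old. Reserve mesenchyme cells (RMCs), whose cell type label is mesenchymal stem cell, were pelleted and given chondrogenic medium for 0 days (CP_0), 7 days (CP_7) or 14 days (CP_14), and cultured antler chondrocytes that carry no induction label made up the CC group. Each of the 4 groups had 3 libraries. The study's methods call the replicate experiments of each tissue type biological. The labels do not tie a library to an animal or a culture, so p-values measure only the spread between these libraries, part of which may be technical, and every comparison shares its libraries with others. CC also differs from the induced cells in cell type and culture, and these cannot be told apart. In such bulk samples fewer cells of a type and less RNA per cell cannot be told apart either.

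Values are given as RPM, the reads on a miRNA scaled to a library total of 1000000. The libraries held 539455 to 1032029 reads in CP_7, 2791559 to 4097304 in CP_0 and CP_14, and 9714090 to 10256572 in CC. The share of a single miRNA, miR-21-5p, was 23.2% ± 1.6 (SD, n = 3) in CP_7, 48.2% ± 5.0 in CP_14, 60.3% ± 1.2 in CP_0 and 75.2% ± 2.0 in CC. RPM values of all other miRNAs share what miR-21-5p leaves, so levels were also given after trimmed-mean (TMM) factors, which correct for composition and averaged 1.92, 0.99, 0.88 and 0.60 in the same order. All 3 cartilage markers had reads, with a summed level of 9043 to 11415 RPM over the 12 libraries. Most of this sum was miR-140 (8831 to 11013 RPM), whose log2 level had an SD of 0.10 on RPM but 0.65 on TMM. The far less abundant miR-455-3p stood at 133 to 141 RPM in CP_7 against 20.9 to 51.9 RPM elsewhere, and miR-455-5p was also highest in CP_7. All 5 mesenchymal markers had reads too. Their sum was smallest in CC (41886 to 57580 RPM) and largest in CP_14 (214493 to 288758 RPM). Most of it was miR-143, with 202609 to 275313 RPM in CP_14, and the list did not move as one. miR-145, miR-199a-5p and miR-199a-3p were highest in CP_7, and miR-199a-5p was higher in CC (2757 to 2923 RPM) than in CP_14 (1339 to 1591 RPM). miR-214, at most 330 RPM, had its highest library in CP_14. Markers of other cells also varied. The red-cell list summed to 4192 RPM in CP_0 replicate 3 against 11.8 RPM in the lowest CP_0 library, and to 22.1 to 145 RPM in CP_7. It summed to 3486 to 5167 RPM in CP_14 and 1387 to 1460 RPM in CC. In reads, however, the sum was close in libraries of different depth. It was 15245 in CP_0 replicate 3, 13472 to 14423 in CP_14 and 13825 to 14964 in CC. miR-144 of that list had at most 2 reads in any library. In CP_7 the muscle list reached 4467 to 6616 RPM against 535 to 1747 RPM elsewhere. Most of it was miR-1, with 4380, 6228 and 4139 RPM in CP_7. miR-133a was also higher in CP_7 than elsewhere, but miR-206 had 263, 7 and 0 reads there. 1 library, CP_7 replicate 3, held 3083 RPM of the endothelial list, nearly all of it miR-126-3p (3073 RPM). The neuron list stood at 1870 RPM in CP_7 replicate 1, nearly all of it miR-9-5p (1858 RPM), against 51.6 to 172 RPM in the other 11 libraries. The part of these cells in the results was not tested.

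On RPM the reference miRNAs moved as a block. The 7 names with at least 10 reads in every library all had their highest group mean in CP_7 and their lowest in CC. For all 7, every CP_7 library lay above every library of the other groups, which was so for 62.0% of the 166 names with that many reads. The group means of miR-186 differed 7.34-fold between CP_7 and CC, those of miR-423-3p 3.82-fold, miR-423-5p 3.55-fold, miR-107 2.75-fold, miR-103 2.53-fold, miR-361 2.17-fold and miR-191 1.90-fold. After TMM factors the same folds between the highest and the lowest group shrank to 3.24 for miR-186, 1.83 for miR-423-3p, 1.67 for miR-191, 1.61 for miR-423-5p, 1.56 for miR-103, 1.56 for miR-107 and 1.48 for miR-361. The highest group was then CP_0 for miR-103, CP_7 for miR-186 and miR-423-3p, CP_14 for miR-423-5p, and CC for miR-107, miR-191 and miR-361. On both scales, then, only miR-186 and miR-423-3p of the 7 had their highest mean in CP_7. On TMM all CC libraries lay above every other library for 2 of the 7 members and 27.7% of the 166 names. CP_7 did so for 1 member (20.5% of names), CP_0 for 1 (8.43%) and CP_14 for 0 (6.02%). All CP_0 libraries lay below every other library for 2 members (10.8% of names). CP_14 did so for 1 (6.02%), CP_7 for 0 (23.5%) and CC for 0 (11.4%).

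**Figure D1:**
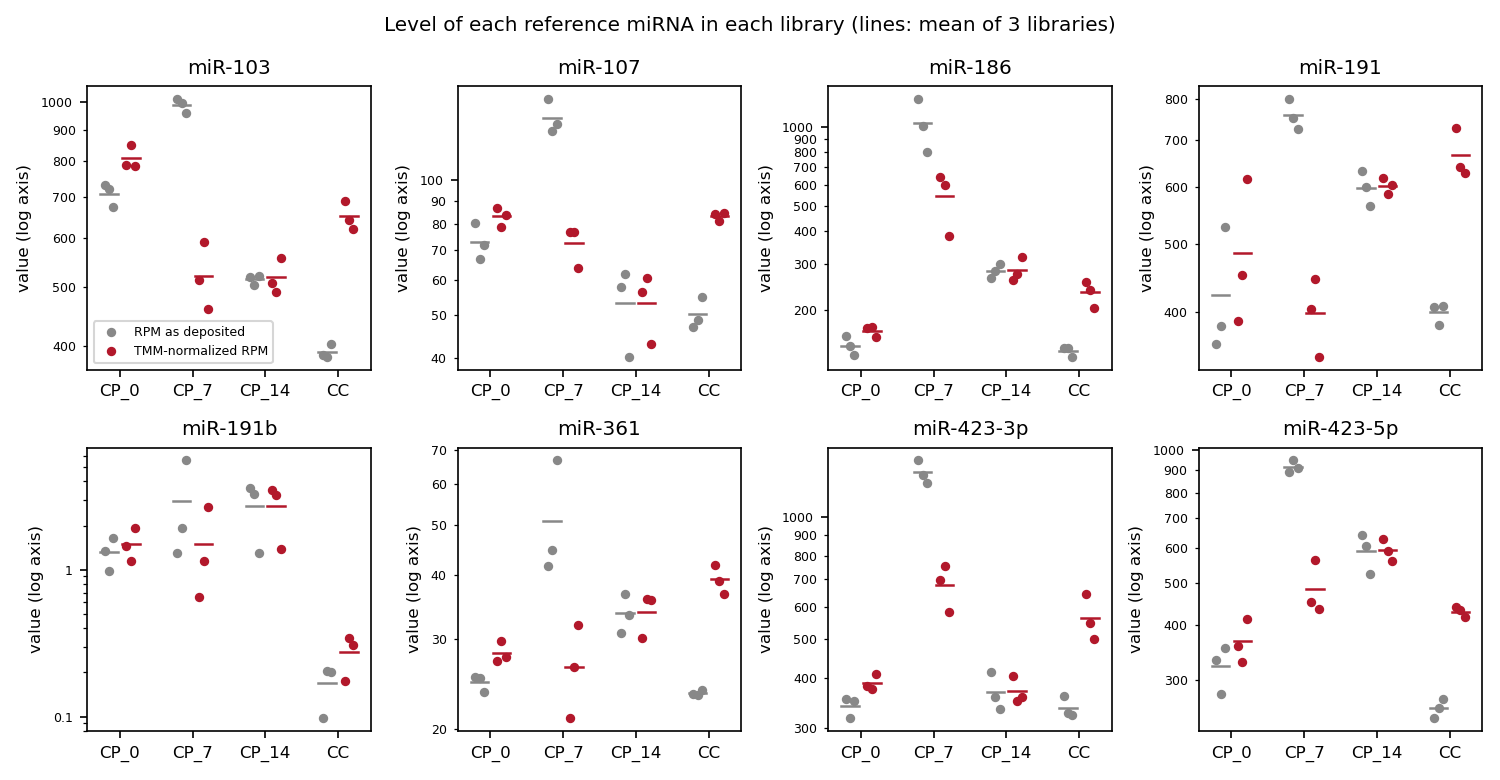
Level of each of the 8 reference miRNAs in each of the 12 libraries (points) with group means (lines, n = 3) on a log axis, in RPM (grey) and TMM-normalized RPM (red). On RPM the 7 names other than miR-191b are all highest in CP_7 and lowest in CC, whereas on TMM-normalized RPM the highest group differs from name to name.

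miR-186 was the least stable member. On RPM it stood at 159, 146 and 135 in CP_0, 1276, 1009 and 805 in CP_7, 267, 282 and 299 in CP_14, and 144, 143 and 133 in CC. The TMM-normalized levels were 172, 173 and 158 in CP_0, 645, 599 and 385 in CP_7, 261, 275 and 320 in CP_14, and 258, 239 and 205 in CC. On this scale CP_7 lay above every other library and CP_0 below every other library, and CP_7 replicate 3 was the lowest of its group. In limma on TMM-normalized values (Benjamini-Hochberg adjusted p), miR-186 rose 3.27-fold from CP_0 to CP_7 (log2 change 1.71, SE 0.20, adjusted p = 0.00029). It fell by 0.97 on the log2 scale from CP_7 to CP_14 (SE 0.21, adjusted p = 0.0069) and was higher in CP_14 than in CP_0 by 0.78 (SE 0.10, adjusted p = 0.00065). In CC it was lower than in CP_7 by a log2 change of -1.46 (SE 0.20, adjusted p = 0.00069), which fell short of the threshold without CP_7 replicate 1 (-0.93) and without CP_7 replicate 2 (-0.85). Its differences between CC and CP_14 (-0.29, adjusted p = 0.024) and between CC and CP_0 (0.34, adjusted p = 0.015) were called with intervals inside 1.5-fold. The former was lost without CC replicate 3 (-0.22) or CP_14 replicate 3 (-0.23), and the latter without CC replicate 2 (0.32). On TMM miR-186 was the only member called in all 6 comparisons, whereas on RPM miR-103 and miR-423-5p were called in 6 and miR-186 in 5.

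The arms of miR-423 moved the same way in some comparisons and opposite ways in others. miR-423-3p, on TMM-normalized RPM, was at 382, 375 and 408 in CP_0, 697, 754 and 580 in CP_7, 403, 350 and 358 in CP_14, and 644, 547 and 497 in CC. CP_0 and CP_14 overlapped and lay below all libraries of CP_7 and CC. It rose from CP_0 to CP_7 by 0.84 (SE 0.11, adjusted p = 0.00037 in limma) and fell by 0.94 from CP_7 to CP_14 (SE 0.11, adjusted p = 0.00037). Between CP_14 and CP_0 the log2 difference was -0.05 with a 95% interval of -0.24 to 0.13, a change of less than 1.5-fold either way. On RPM its levels in CP_0 and CC were also close, at 341 ± 20.0 and 337 ± 20.0 (SD, n = 3), while TMM placed CC above CP_0 by 0.40 (SE 0.09, adjusted p = 0.012). It was also higher in CC than in CP_14 (log2 change 0.59, SE 0.09, adjusted p = 0.00031).

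miR-423-5p followed another course. Its TMM-normalized levels were 359, 330 and 414 in CP_0, 452, 563 and 435 in CP_7, 627, 592 and 559 in CP_14, and 440, 433 and 417 in CC. CP_0 was the lowest group and overlapped no other, and CP_14 was the highest on average, its range touching that of CP_7 through the second CP_7 library. miR-423-5p was higher in CP_14 than in CP_0 by 0.71 (SE 0.09, adjusted p = 0.00065 in limma) and lower in CC than in CP_14 by a log2 change of -0.47 (SE 0.06, adjusted p = 0.00014). Its rise from CP_0 to CP_7, 0.44 (SE 0.11, adjusted p = 0.0079), missed the threshold without CP_7 replicate 1 (0.25) and without CP_7 replicate 2 (0.14). From CP_7 to CP_14 the change was 0.22 with an interval of 0.01 to 0.44 and an adjusted p of 0.079. In CC against CP_7 both arms were called lower, miR-423-3p by a log2 change of -0.54 (adjusted p = 0.0058) and miR-423-5p by -0.43 (adjusted p = 0.0034). Neither call held when any CP_7 library was left out, which gave -0.40 to 0.06 for miR-423-3p and -0.26 to 0.20 for miR-423-5p.

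The ratio of the 2 arms within a library needs no scaling at all. The reads of miR-423-5p over those of miR-423-3p gave 0.939, 0.878 and 1.01 in CP_0, 0.648, 0.747 and 0.750 in CP_7, 1.56, 1.69 and 1.56 in CP_14, and 0.683, 0.791 and 0.838 in CC. The 5p arm was thus in excess in all 3 CP_14 libraries, in 1 CP_0 library and in none of CP_7 or CC. From CP_7 to CP_14 the ratio increased 2.25-fold, a log2 difference of 1.17. The groups overlapped in 1 of 6 comparisons, CC against CP_7, with an exact two-sided permutation p of 0.4 and a log2 difference of 0.11. The other 5 comparisons had an exact permutation p of 0.1, the smallest that 3 against 3 libraries allow, and an adjusted p of 0.15 over the 12 ratio tests, so none passed the threshold of 0.05.

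**Figure D2:**
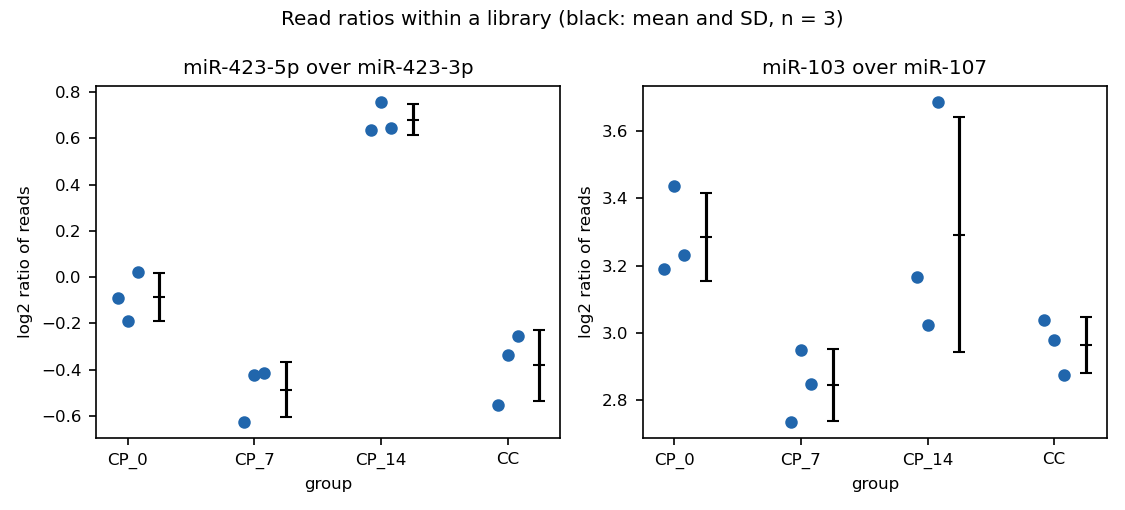
Log2 ratio of reads within each library (points) for miR-423-5p over miR-423-3p (left) and miR-103 over miR-107 (right) in the 4 groups, with the mean and SD in black (n = 3). The arm ratio of miR-423 lies above 0 in all 3 CP_14 libraries and below 0 in all CP_7 and CC libraries.

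miR-103, a broadly expressed miRNA linked to metabolic regulation, had the highest level of the reference miRNAs in CP_0. Its TMM-normalized RPM was 790, 852 and 786 in CP_0, 512, 591 and 459 in CP_7, 507, 491 and 556 in CP_14, and 690, 641 and 620 in CC. CP_0 lay above all other libraries, CC came next, and CP_7 and CP_14 overlapped. The deposited RPM put CP_7 on top instead, at 989 ± 26.5 against 709 ± 31.6 in CP_0 (SD, n = 3), so the change from CP_0 to CP_7 was 0.48 on RPM and -0.59 on TMM (SE 0.10, adjusted p = 0.0019 in limma). CP_14 was below CP_0 on both scales, by a log2 change of -0.63 on TMM (SE 0.08, adjusted p = 0.00049) and -0.46 on RPM. CC was likewise below CP_0 on both, with -0.45 on TMM (SE 0.06, adjusted p = 0.00084) and -0.86 on RPM. CC exceeded CP_14 by 0.32 on TMM (adjusted p = 0.0020) but lay below it on RPM (-0.39). Between CP_14 and CP_7 the interval, -0.33 to 0.17, stayed within 1.5-fold. So did that of CC against CP_7, -0.16 to 0.26. There, however, miR-103 was called higher in CC with upper-quartile factors (0.57, adjusted p = 0.0013 in limma). It was also called in a single fit of all 12 libraries (0.33, adjusted p = 0.0098 in limma).

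miR-107, the less abundant relative of miR-103, had TMM intervals within 1.5-fold in the 3 comparisons among CP_0, CP_7 and CC and was lower in CP_14. On RPM it was called higher in CP_7 than in CP_0 (0.91) and lower in CC than in CP_7 (-1.44). The TMM value for CC against CP_7, -0.07, was 0.36, 0.49 and 0.09 without CP_7 replicates 1, 2 and 3, and 0.45 with upper-quartile factors (adjusted p = 0.017 in limma). Its TMM-normalized levels were 86.6, 78.7 and 83.8 in CP_0, 76.8, 76.5 and 63.8 in CP_7, 56.4, 60.4 and 43.2 in CP_14, and 84.0, 81.3 and 84.5 in CC. CP_14 was below every other library. miR-107 was lower in CP_14 than in CP_0 by a log2 change of -0.62 (SE 0.14, adjusted p = 0.0097 in limma) and higher in CC than in CP_14 by 0.64 (SE 0.13, adjusted p = 0.0020). Its fall from CP_7 to CP_14, -0.52 (adjusted p = 0.044), missed the threshold whichever library was left out (-0.63 to -0.39). CC and CP_0 differed by -0.12 with an interval of -0.28 to 0.04. Since miR-103 and miR-107 are near-identical, how their reads were shared between the names is uncertain. The ratio of miR-103 to miR-107 was 9.12, 10.8 and 9.38 in CP_0, 6.66, 7.72 and 7.19 in CP_7, 8.98, 8.12 and 12.9 in CP_14, and 8.21, 7.89 and 7.34 in CC. CP_7 lay below CP_0 and below CP_14 without overlap, and CC below CP_0. These 3 comparisons had an exact permutation p of 0.1 (adjusted 0.15), and the other 3 an exact permutation p of 0.2 to 1.

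On TMM miR-191 and miR-361 had the fewest calls of the 7 members, 2 and 1 of 6 comparisons, whereas on RPM they had 5 and 4 and miR-423-3p the fewest, 3. miR-191 had TMM-normalized levels of 389, 451 and 616 in CP_0, 404, 446 and 347 in CP_7, 618, 586 and 604 in CP_14, and 728, 641 and 629 in CC. CP_0 and CP_7 overlapped, CC lay above all other libraries, and CP_0 replicate 3 was far above the other CP_0 libraries. This library also held the most red-cell marker reads of its group, 15245 reads against 35 in the lowest. The CP_14 libraries held 13472 to 14423 such reads and the CC libraries 13825 to 14964, against 17 to 150 in CP_7. miR-144 of that list had 0 reads in CP_0 replicate 3, and a link between these reads and miR-191 was not tested in any group. In limma miR-191 was higher in CP_14 than in CP_7 by 0.52 (SE 0.10, adjusted p = 0.0042) and higher in CC than in CP_7 by 0.47 (SE 0.10, adjusted p = 0.0045), the latter not called without CP_7 replicate 1 (0.86). That difference was 1.07 without CP_7 replicate 2 and ran from 0.43 to 1.07 as single libraries were left out. On RPM both of these changes had the opposite sign, -0.34 and -0.92. Against CP_0 its differences of 0.36 in CP_14 (adjusted p = 0.084) and 0.35 in CC (adjusted p = 0.13) were not called, but without CP_0 replicate 3 they were 0.53 and 0.54 and passed the threshold. miR-425-5p, from the same host gene, was called in 3 of 6 comparisons, with 0.81 in CP_7 against CP_0 (SE 0.26, adjusted p = 0.030) where miR-191 had -0.21. The other arm, miR-425-3p, was called in 0 of 6 comparisons, with 0.07 in CP_7 against CP_0 (SE 0.40, adjusted p = 0.90).

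miR-361, with 32 to 240 reads a library, was the member with the smallest changes on TMM, while on RPM the group means of miR-191 lay closer together (1.90-fold against 2.17-fold). Its TMM-normalized levels were 27.2, 29.7 and 27.6 in CP_0, 21.0, 26.5 and 31.9 in CP_7, 30.1, 35.8 and 35.7 in CP_14, and 41.8, 38.9 and 36.7 in CC. CC lay above every other library, CP_7 spanned all of CP_0, and CP_14 overlapped CP_7. The only call was CC against CP_0, 0.33 (SE 0.10, adjusted p = 0.027 in limma), and it was lost without CP_0 replicate 1 or 3 and without CC replicate 1 or 2. Its intervals stayed within 1.5-fold in 4 of 6 comparisons. In CP_14 against CP_7 and CC against CP_7 they reached 0.80 and 0.75, so changes up to that size are not excluded. In CC against CP_7 miR-361 was called with upper-quartile factors (0.81, adjusted p = 0.0089 in limma). It was also called there in a single fit of all 12 libraries (0.56, adjusted p = 0.0092 in limma) and without CP_7 replicate 2 (0.81).

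miR-191b could not be assessed in any pair of groups. It had 4, 4 and 6 reads in CP_0, 1, 2 and 3 in CP_7, 10, 10 and 5 in CP_14, and 1, 2 and 2 in CC. Pooled over the libraries of a group this was 1.31 RPM in CP_0 (exact Poisson 95% interval 0.71 to 2.19), 2.56 in CP_7 (0.94 to 5.58), 2.58 in CP_14 (1.67 to 3.81) and 0.17 in CC (0.05 to 0.39). The intervals cover counting error only and those of CP_0, CP_7 and CP_14 overlap, while that of CC lies below all of them.

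Counted by comparison, 4 or 5 of the 7 members tested were called in each. In CP_7 against CP_0, 4 were called against 63.8% of all miRNAs tested, with 3 higher (35.8% of all) and 1 lower (28%). In CP_14 against CP_7, 4 were called (52.8% of all), with 1 higher (24.4%) and 3 lower (28.5%). In CP_14 against CP_0, 4 were called (46% of all), with 2 higher (24.8%) and 2 lower (21.2%). In CC against CP_14, 5 were called (74.6% of all), with 3 higher (37.7%) and 2 lower (37%). In CC against CP_7, 4 were called (67.4% of all), with 1 higher (29%) and 3 lower (38.4%). In CC against CP_0, 4 were called (55.8% of all), with 3 higher (30%) and 1 lower (25.8%), and without CC replicate 2 only 2 were. Of the 42 member tests 25 were called, and in 17 the 95% interval lay within 1.5-fold. That stricter reading of stability was met by 2 members in CP_7 against CP_0 (8.13% of all miRNAs), 2 in CP_14 against CP_7 (11.8%), 2 in CP_14 against CP_0 (28%), 4 in CC against CP_14 (18.1%), 2 in CC against CP_7 (9.06%) and 5 in CC against CP_0 (31.2%). On RPM 33 of the 42 tests were called. In CP_7 against CP_0 all 7 were higher (69.9% of all called, 61.8% higher, 8.13% lower), and in CC against CP_7 all 7 were lower (76.4% called, 7.25% higher, 69.2% lower). In CP_14 against CP_7, 6 were lower (66.7% called, 10.6% higher, 56.1% lower), and in CC against CP_14, 5 were lower (73.6% called, 14.5% higher, 59.1% lower). In CP_14 against CP_0, 4 were higher and 1 lower (43.6% called, 30.4% higher, 13.2% lower), and in CC against CP_0, 3 were lower (54.6% called, 11.5% higher, 43.1% lower). Within 1.5-fold on RPM lay 0 members in CP_7 against CP_0 (5.69% of all), 1 in CP_14 against CP_7 (4.88%), 1 in CP_14 against CP_0 (25.2%), 3 in CC against CP_14 (14.9%), 0 in CC against CP_7 (3.99%) and 5 in CC against CP_0 (23.5%). The sign of the change differed between RPM and TMM in 21 of the 42. The limma F test over the 4 groups called the 7 members on either scale, as it did 84.2% of all miRNAs on TMM and 86.6% on RPM. miR-191b entered that test only through the groups where it had more reads and is not counted.

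The size of the difference between the scales can be read from the median log2 change over every miRNA that was tested. It was 1.12 on RPM and 0.07 on TMM in CP_7 against CP_0, -0.84 and -0.01 in CP_14 against CP_7, and 0.16 and 0.01 in CP_14 against CP_0. In CC against CP_14 it was -0.54 on RPM and 0.09 on TMM, and in CC against CP_0 -0.33 and 0.05. CC against CP_7 was the least settled comparison. There the median was -1.44 on RPM, -0.09 on TMM and 0.40 with upper-quartile factors, and it ran from -0.21 to 0.42 on TMM as single libraries were left out. The calls of the 7 members in this comparison fell to 0 without CP_7 replicate 1 and to 2 without CP_7 replicate 3. Without CP_7 replicate 2 it was miR-103 (0.67) and miR-361 (0.81) that passed the threshold there, beside 0.05 and 0.30 with all libraries.

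**Figure D3:**
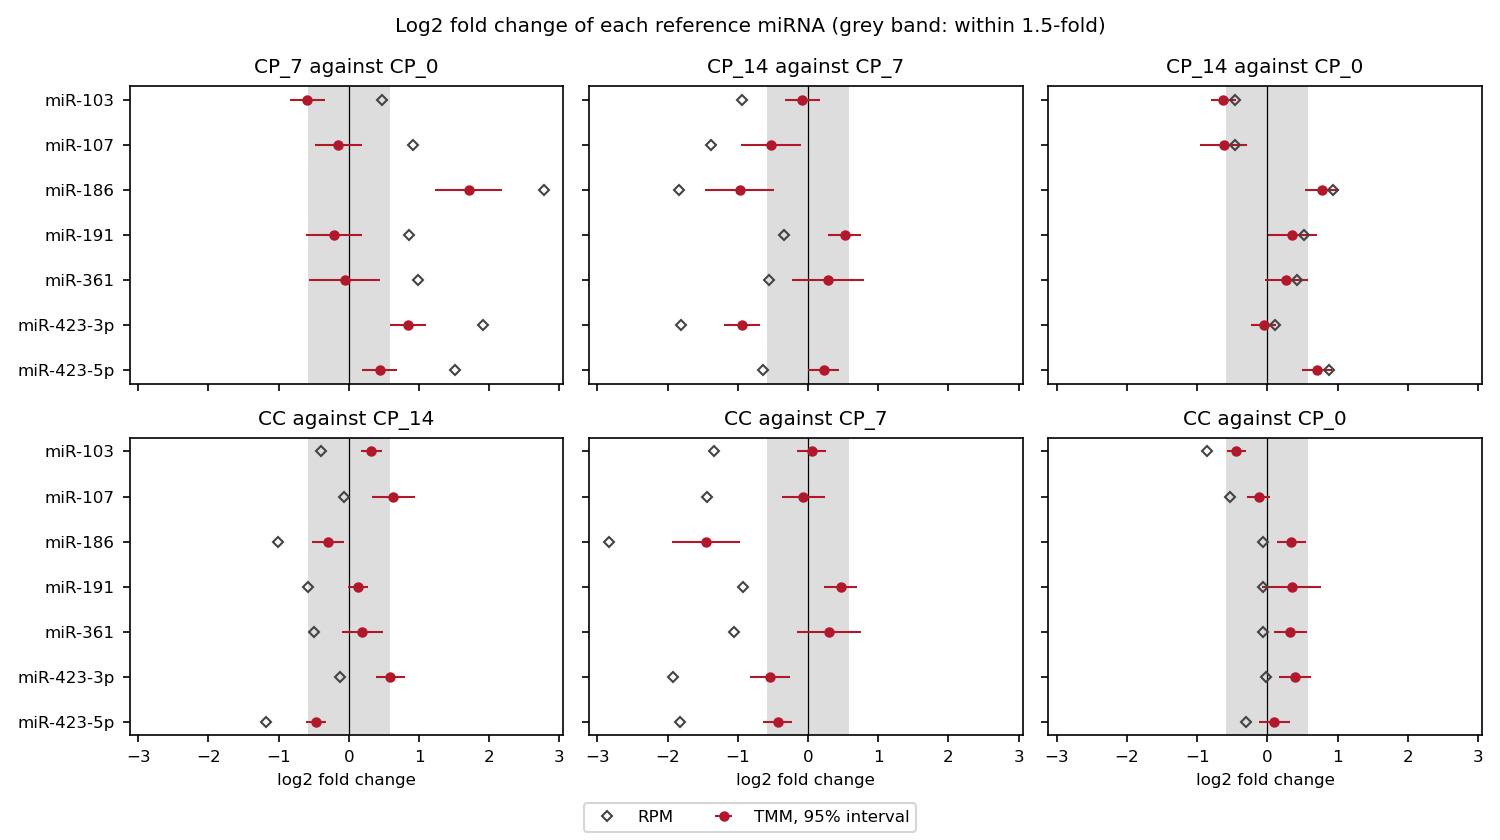
Log2 fold change of 7 reference miRNAs in the 6 comparisons, on TMM-normalized RPM (red, with the 95% interval of the limma fit) and on RPM (open diamonds). The grey band marks changes within 1.5-fold, which holds the whole interval in 17 of 42 tests on TMM-normalized RPM.

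Over all 12 libraries, the SD of the log2 level measured how far each reference miRNA strayed. On RPM it was 0.42 for miR-191, 0.47 for miR-361, 0.52 for miR-103, 0.62 for miR-107, 0.76 for miR-423-5p, 0.86 for miR-423-3p and 1.21 for miR-186. On TMM-normalized RPM the order was miR-361 (0.27), miR-423-5p (0.29), miR-103 (0.30), miR-107 (0.30), miR-191 (0.35), miR-423-3p (0.40) and miR-186 (0.66). The neighbours from miR-361 to miR-107 in the second order lie closer together than the SD within groups, which was 0.11 to 0.17 for them. All 7 had a smaller SD on TMM than on RPM, as had 72.3% of the 166 names. The median SD of the 7 was 0.62 on RPM and 0.30 on TMM, beside 0.73 and 0.60 for the 166 names. On TMM 9.04% of the names strayed less than miR-361, 10.2% less than miR-423-5p and 57.2% less than miR-186. The 3 steadiest names outside the set were miR-151-3p (0.15), miR-149-5p (0.17) and miR-148c (0.20), and miR-151-3p had an SD of 0.72 on RPM.

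**Figure D4:**
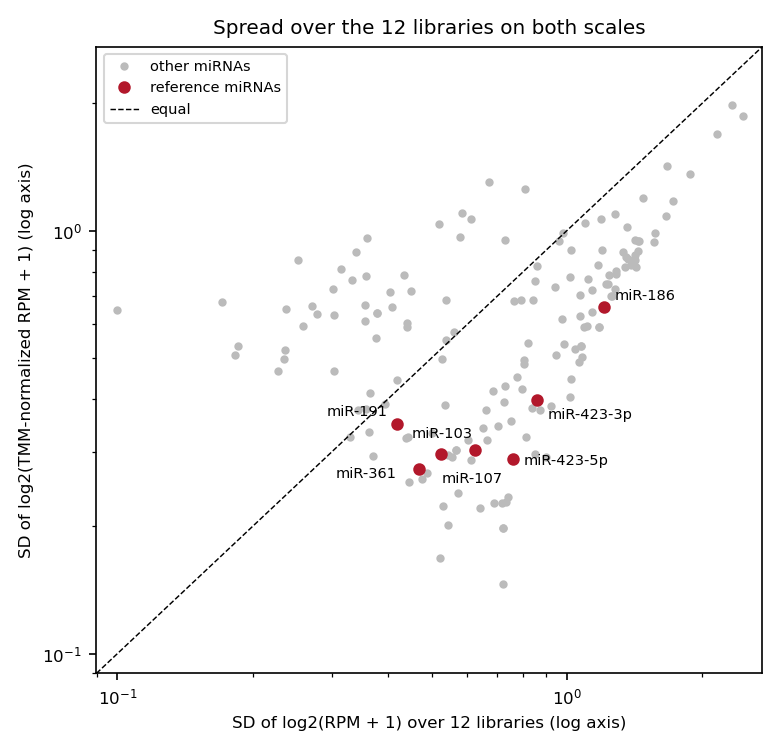
SD of the log2 level over the 12 libraries on RPM (horizontal) and on TMM-normalized RPM (vertical), both on log axes, for 7 reference miRNAs (red) and the other names with at least 10 reads in every library (grey). All 7 reference miRNAs lie below the line of equality, from miR-361 at 0.27 to miR-186 at 0.66 on the vertical axis.

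Ratios between members gave a reading of stability that no scaling can alter. Among the 21 pairs the SD of the log2 read ratio ran from 0.26 (miR-191 and miR-361) to 0.89 (miR-103 and miR-186), with a median of 0.49. miR-103 and miR-107 came second at 0.27. Averaged over its 6 partners, the SD was lowest for miR-361 (0.47) and highest for miR-186 (0.74), and the other 5 members lay between 0.49 and 0.52. The read ratio of miR-103 to miR-186 varied 6.27-fold over the libraries and that of miR-191 to miR-361 2.05-fold. Among 159 other names, the one that kept the steadiest ratio to each member over the 12 libraries was let-7a-5p for miR-423-3p (SD 0.15), miR-92a for miR-191 (0.17), miR-204 for miR-361 (0.21), miR-27b for miR-103 (0.21), miR-194b for miR-423-5p (0.24), miR-15b for miR-107 (0.24) and miR-29b for miR-186 (0.25). These are descriptions over libraries that differ in depth and composition. Each nearest name is the smallest SD among the 159, whose median SD to a member ran from 0.62 to 0.88.

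**Figure D5:**
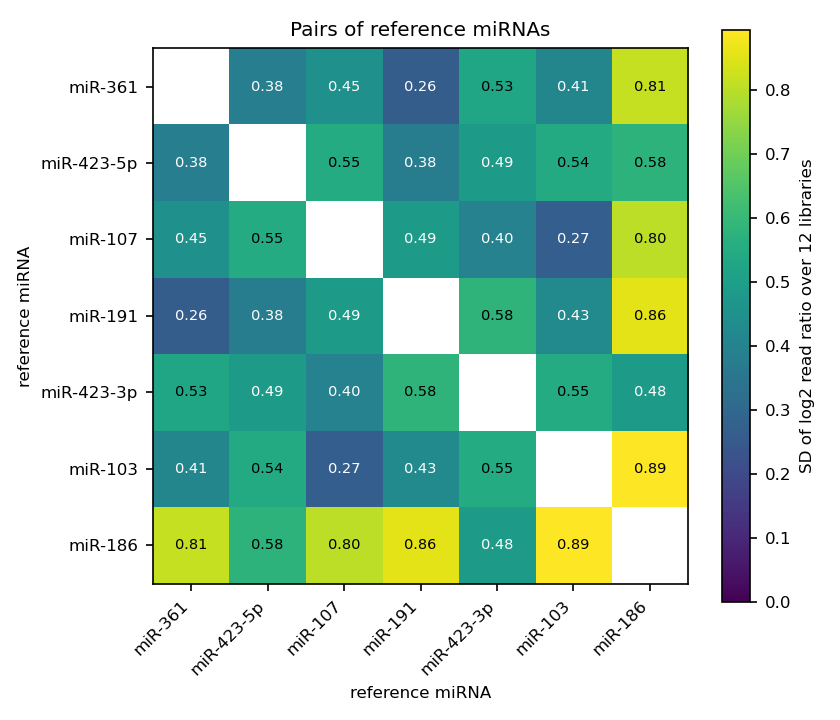
SD of the log2 read ratio over the 12 libraries for each pair of 7 reference miRNAs, with darker cells for steadier pairs. The row and column of miR-186 hold the 4 largest values, 0.80 to 0.89, and the steadiest pair is miR-191 with miR-361 at 0.26.

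Used together, the 7 members gave a flatter standard on TMM than on RPM. Their geometric mean was 156.0 ± 2.5 RPM in CC, 189 ± 8.0 in CP_0, 229 ± 12.9 in CP_14 and 483 ± 16.4 in CP_7 (SD, n = 3). After TMM factors, in the same order, it was 260 ± 17.3, 215 ± 9.3, 231 ± 1.2 and 254 ± 26.4, so that the highest library exceeded the lowest 1.35-fold, against 3.26-fold on RPM. The members entered the TMM factors, which bring the change of most miRNAs close to none (median 1.12 on RPM and 0.07 on TMM in CP_7 against CP_0). Other sets of names were not scored, so the flattening cannot be taken as particular to the members. Changes of single members in opposite directions partly cancel in such a mean. Scaling every library to this geometric mean instead of by TMM changed the balance of calls. In CP_7 against CP_0 it gave 67 higher and 82 lower miRNAs (45% of calls higher) where TMM gave 88 and 69 (56.1%). In CP_14 against CP_7 it gave 73 higher and 52 lower (58.4%) where TMM gave 60 and 70 (46.2%). The share of calls that were higher was 44.8% against 53.9% in CP_14 against CP_0, 41.9% against 50.5% in CC against CP_14, 51.1% against 43% in CC against CP_7 and 43.5% against 53.8% in CC against CP_0. Upper-quartile factors also moved it, to 42.8% in CP_7 against CP_0, 35.5% in CP_14 against CP_0 and 60.1% in CC against CP_7. The median change of all miRNAs with the geometric mean scaling lay between -0.18 and 0.20. On RPM the share was 88.4% in CP_7 against CP_0 and 9.48% in CC against CP_7.

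Other miRNAs in use as references were counted in the same way on TMM, from a list of 12 names, without a test against the members. In CP_7 against CP_0, 11 were tested, of which 5 were higher (35.8% of all miRNAs), 6 lower (28%) and 1 within 1.5-fold (8.13%). In CP_14 against CP_7, 3 of 11 were higher (24.4%), 2 lower (28.5%) and 2 within 1.5-fold (11.8%). In CP_14 against CP_0, 2 of 11 were higher (24.8%), 2 lower (21.2%) and 7 within 1.5-fold (28%). In CC against CP_14, 8 of 11 were higher (37.7%), 2 lower (37%) and 4 within 1.5-fold (18.1%). In CC against CP_7, 6 of 12 were higher (29%), 3 lower (38.4%) and 2 within 1.5-fold (9.06%). In CC against CP_0, 7 of 11 were higher (30%), 1 lower (25.8%) and 4 within 1.5-fold (31.2%). Among those tested in all comparisons, the largest log2 change of either sign was smallest for miR-16b (0.54) and miR-25 (0.54), and reached 2.15 for miR-16a, 2.31 for miR-93 and 2.42 for miR-30e-5p. The corresponding largest change was 0.33 for miR-361, 0.52 for miR-191, 0.63 for miR-103, 0.64 for miR-107, 0.71 for miR-423-5p, 0.94 for miR-423-3p and 1.71 for miR-186.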

How the data were processed

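The authors deposited 1 table for each of the 12 small RNA libraries (NEBNext kit, Illumina NovaSeq), with values headed TPM that are RPM, the share of a library's listed reads that a miRNA holds times 1000000, not divided by length. CASAVA, bcl2fastq 1.8.4 and Bowtie are named in the submitters' processing notes, and trimming, counter and build were not given in the sources used here. Reads were recovered from the value of 1 read, with 100% of values whole within 0.01 read. 1 read was worth 0.097 to 1.85 RPM, and 0 reads allow up to 0.29 to 5.56 RPM (3 reads), counting error only. The main test was limma 3.58.1 (trend, two-sided) on log2(TMM-normalized RPM + 1), which understates changes of low names, in each pair of groups with TMM factors over all listed names of its 6 libraries. Levels and SDs used factors over all 12 libraries, so a fold of levels can differ from the fitted one. Names passed edgeR 4.0.16's filterByExpr (minimum count 10, total 15), and p-values were Benjamini-Hochberg adjusted over all names tested, with a threshold of 0.05. On the recovered reads, edgeR's quasi-likelihood test called 160, 134, 112, 205, 190 and 142 of all miRNA names in CP_7 against CP_0, CP_14 against CP_7, CP_14 against CP_0, CC against CP_14, CC against CP_7 and CC against CP_0, where limma called 157, 130, 115, 206, 186 and 145. Read ratios were compared by exact two-sided permutation tests. R 4.3.3, DESeq2 1.42.0 (an alternative) and Python 3.11.15 were used. The procedure was also run on simulated counts with random changes and a single fixed dispersion, which cannot decide between the scalings. Replicate pairs differed beyond sampling noise. Chi-square per degree of freedom was 4.92 for CP_14 replicates 1 and 2, by far the most alike pair, and 25.6 to 252 for the other pairs. The members and lists were chosen with earlier results of these data known. Named are all members, the 3 steadiest other names, the nearest name to each member by ratio SD, miR-425 and the list of other references. Deviations of same-numbered libraries from their group means correlated above 0.1 in all 3 pairs in CC against CP_7 only (0.12 to 0.17), a hint from the data that no label states. Alternatives were RLE, upper-quartile and library-size scaling, TMM without the members, other pseudocounts, no filter, edgeR, DESeq2, a single fit, a replicate block, a 2-fold threshold and leaving out each library. TMM over names that pass the filter was added after seeing the data.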

Additional observations from a re-analysis of the deposited data

How the results depend on the processing

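The calls depended on the scaling, and in CC against CP_7 also on which CP_7 library was left out. Of the 42 changes of reference miRNAs, all 42 kept direction and side of the threshold with edgeR's quasi-likelihood test, with pseudocounts of 0.5 and 5 and with TMM factors that left out the reference miRNAs, and 40 with RLE factors, 40 with DESeq2, 40 without the filter, 37 with TMM over names passing the filter (added after seeing the data), 33 with a single fit and 28 with upper-quartile factors. Where only library size was used, 15 did, the number within 1.5-fold was 10 instead of 17, and 7 members were called in CP_7 against CP_0 and 7 in CC against CP_7. The cause was not tested. A threshold that also asks for 2-fold called 1 member in CP_7 against CP_0, 1 in CC against CP_7 and 0 in the other 4 comparisons, where limma without it called 4, 4, 5 and 4.

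With library size only, signs reversed in CP_7 against CP_0 for miR-103 (0.48), miR-107 (0.91), miR-191 (0.86) and miR-361 (0.99), in CP_14 against CP_7 for miR-191 (-0.34), miR-361 (-0.56) and miR-423-5p (-0.64), and in CP_14 against CP_0 for miR-423-3p (0.11). In CC against CP_14 they reversed for miR-103 (-0.39), miR-107 (-0.064), miR-191 (-0.58), miR-361 (-0.50) and miR-423-3p (-0.12), and in CC against CP_7 for miR-103 (-1.34), miR-191 (-0.92) and miR-361 (-1.05). In CC against CP_0 they reversed for miR-186 (-0.065), miR-191 (-0.063), miR-361 (-0.066), miR-423-3p (-0.015) and miR-423-5p (-0.31). In CC against CP_7, miR-107 turned to 0.091 with RLE factors, 0.45 with upper-quartile factors, 0.061 with DESeq2 and 0.20 in a single fit, miR-423-5p to 0.086 with upper-quartile factors and miR-103 to -0.073 with TMM over names passing the filter. In CP_14 against CP_7 miR-103 turned to 0.058 with upper-quartile factors and 0.012 with TMM over names passing the filter, and in CC against CP_0 miR-107 to 0.0052 in a single fit.

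With each library left out in turn, 217 of 252 changes kept direction and side. The members called ran from 3 to 4 in CP_7 against CP_0 and CP_14 against CP_7, 4 to 5 in CP_14 against CP_0, 5 to 6 in CC against CP_14, 0 to 4 in CC against CP_7 and 2 to 5 in CC against CP_0, and those within 1.5-fold ran from 12 to 17. The ratio of miR-103 to miR-107 in CP_14 against CP_0, a log2 difference of 0.0069, ran from -0.19 to 0.14, with -0.041 and -0.021 without CP_0 replicates 1 and 3. Changes that reversed were miR-103 in CP_14 against CP_7 (-0.15 to 0.093), miR-361 in CP_7 against CP_0 (-0.28 to 0.010), and in CC against CP_7 miR-107 (-0.078 to 0.49), miR-423-3p (-0.62 to 0.062) and miR-423-5p (-0.46 to 0.20). The highest of these values came without CP_7 replicate 2, except for miR-361, which needed CP_0 replicate 2 left out, and miR-107 also reversed without CP_7 replicates 1 (0.36) and 3 (0.088).

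The labels do not say whether same-numbered libraries are paired. In 5 of 6 comparisons the correlation of deviations of same-numbered libraries ran from -0.29 to 0.13. With 3 libraries in a group such values cannot show that the libraries are unpaired. In CC against CP_7 all 3 pairs were above 0.1 (0.13, 0.12 and 0.17), and the block changed the call of 0 of the 7 members there. With the replicate number as a block, 4, 3, 4, 4, 4 and 3 members were called in CP_7 against CP_0, CP_14 against CP_7, CP_14 against CP_0, CC against CP_14, CC against CP_7 and CC against CP_0, and 13 of 42 lay within 1.5-fold.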
